A study of Mus musculus with 8 samples.

Results

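Toll-like receptor genes and Cd14, the gene of a co-receptor of these receptors, were followed in the left ventricle of mice after myocardial infarction (MI). The 10 genes were taken by symbol from the count tables of 1 and 3 days: Tlr1, Tlr2, Tlr4, Tlr6 and Cd14, whose products act at the cell surface, and Tlr3, Tlr7, Tlr8, Tlr9 and Tlr13, whose products act in endosomes. They are 10 of 24062 genes listed in both tables, and all 10 passed the filter on low counts, which left 15508 genes for testing. The animals were male C57BL/6 mice of 8 to 12 weeks. In the MI groups the left anterior descending coronary artery had been ligated, and ischemic tissue was taken, labelled as left ventricular free wall. The sham groups had surgery without ligation, and each time point had its own sham mice. There were 4 groups (sham and MI at 1 day, sham and MI at 3 days) with 2 mice each. Ribosomal RNA was removed from total RNA before paired-end sequencing. No replicate number stands in the count columns, and A and B below name the libraries of each group by column order.

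Toll-like receptors recognise microbial molecules and molecules released from injured cells. TLR2 pairs with TLR1 or TLR6 to bind lipopeptides, and TLR4 binds lipopolysaccharide together with the protein encoded by Ly96, after CD14 has passed the lipid on. TLR3 binds double-stranded RNA, TLR7 and TLR8 bind single-stranded RNA or its breakdown products, TLR9 binds DNA with unmethylated CpG, and mouse TLR13 binds bacterial ribosomal RNA. In the heart these receptors are known from leukocytes, endothelial cells and cardiomyocytes, and most of them signal through the adaptor MyD88, whereas TLR3 uses TRIF (Ticam1).

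In RefSeq's annotation of GRCm38.p6, the assembly of mm10, Tlr1 (chr5:64924680-64933600) and Tlr6 (chr5:64953092-64970942) lie beside each other on chromosome 5. Tlr7 (chrX:167303380-167330574) and Tlr8 (chrX:167241123-167264329) are also neighbours, and Tlr13 (chrX:106143275-106160493) lies elsewhere on the X chromosome. Tlr2 spans chr3:83836272-83841824, Tlr3 chr8:45395665-45411075, Tlr4 chr4:66827551-66846581 and Tlr9 chr9:106222598-106226876. Among the 36 pairs of the 9 receptor genes, 1 pair, Tlr1 and Tlr6, shared a coding window of 50 bases, by sequence comparison in the GENCODE M1 transcripts. Of all windows of 50 bases, 19.4% of those in Tlr1 and 19.1% of those in Tlr6 occurred in the other gene. The longest run in common held 229 bases, coding bases 1468 to 1696 of Tlr1 and 1507 to 1735 of Tlr6. It is printed because read pairs that lie wholly within it cannot be assigned to 1 of these genes. The counts of Tlr1 and Tlr6 are therefore less certain than those of the other members. The shared run is in capitals, with 15 flanking bases on each side in lower case:
Tlr1: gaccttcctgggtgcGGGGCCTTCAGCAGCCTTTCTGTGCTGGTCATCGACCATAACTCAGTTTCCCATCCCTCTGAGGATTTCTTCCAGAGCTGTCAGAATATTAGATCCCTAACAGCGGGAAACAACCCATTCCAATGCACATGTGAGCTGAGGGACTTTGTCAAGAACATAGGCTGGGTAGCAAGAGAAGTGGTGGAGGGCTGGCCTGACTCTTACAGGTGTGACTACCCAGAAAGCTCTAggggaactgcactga
Tlr6: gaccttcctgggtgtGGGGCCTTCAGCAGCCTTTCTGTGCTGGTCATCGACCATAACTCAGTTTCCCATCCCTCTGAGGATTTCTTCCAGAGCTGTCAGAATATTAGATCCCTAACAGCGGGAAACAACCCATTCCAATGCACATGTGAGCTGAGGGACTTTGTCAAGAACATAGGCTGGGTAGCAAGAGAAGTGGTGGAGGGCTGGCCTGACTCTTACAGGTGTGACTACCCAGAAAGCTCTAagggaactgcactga

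RefSeq promoter sequences of GRCm38.p6 were at hand for 7 of the 10 genes: Tlr1, Tlr2, Tlr3, Tlr6, Tlr8, Tlr9 and Tlr13. In the 250 bases before each start, 5 motifs were searched on both strands. GAGGAAG, a core of PU.1 sites, occurred upstream of Tlr1, Tlr9 and Tlr13 and in 10.6% of all 32851 promoters. The GAS motif TTCNNNGAA occurred upstream of Tlr1 and Tlr8 and in 7.02% of all promoters. TGANTCA, bound by AP-1 factors, occurred upstream of Tlr9 and in 6.75% of all promoters, and the ISRE core, GAAA and GAAA with 2 bases between, upstream of Tlr6 and in 2.98% of all promoters. The NF-kB consensus occurred upstream of Tlr2 and Tlr3 and in 7.25% of all promoters. The 150 bases before the start are shown for Tlr13, Tlr8 and Tlr9, endosomal receptors chosen after their values were seen. Tlr13 was called higher after MI at both days, and Tlr8 and Tlr9 passed the test at 3 days but not at 1 day. The difference between the days was called for Tlr8, and not for Tlr13 or Tlr9. Motif matches are in capitals: GAGGAAG in Tlr13, TTCNNNGAA in Tlr8, and GAGGAAG followed by TGANTCA in Tlr9. The stretches are chrX:106143125-106143274 on the plus strand, chrX:167264330-167264479 on the minus strand and chr9:106222448-106222597 on the plus strand. A match describes the letters and shows no binding:
Tlr13: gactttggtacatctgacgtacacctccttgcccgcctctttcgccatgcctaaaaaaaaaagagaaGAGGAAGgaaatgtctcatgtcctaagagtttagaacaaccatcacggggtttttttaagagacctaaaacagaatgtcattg
Tlr8: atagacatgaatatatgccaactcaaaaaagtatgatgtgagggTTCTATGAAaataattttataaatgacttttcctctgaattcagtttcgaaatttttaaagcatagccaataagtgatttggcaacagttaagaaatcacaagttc
Tlr9: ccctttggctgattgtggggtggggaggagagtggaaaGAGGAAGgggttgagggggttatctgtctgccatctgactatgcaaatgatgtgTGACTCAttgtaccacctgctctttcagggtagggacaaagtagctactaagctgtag

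The libraries held 7382490 to 25041386 gene counts, the fewest in both MI libraries of 1 day (12662237 and 7382490). Values are CPM on the library size scaled by TMM, and at these depths 3 counts equalled between 0.12 and 0.406 CPM. Reads lay in 92.3% of 1503 chemosensory receptor genes in MI library B of 1 day, in 50.6% in sham library B of 1 day and in 23.5% in MI library A of 1 day, against 4.3% to 8.1% in the other libraries. Results that rest on 1 day were therefore also computed without both B libraries of that day. Defining heart muscle genes were present in every library, and their summed level fell from 131200 CPM in sham to 7493 CPM in MI at 3 days. In bulk tissue a change in the number of cells of a type and a change in RNA per cell cannot be told apart. The p-values below rest on the spread between mice of the same group. It was pooled over the 4 groups of 2 mice and drawn toward the spread of other genes.

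**Figure D1:**
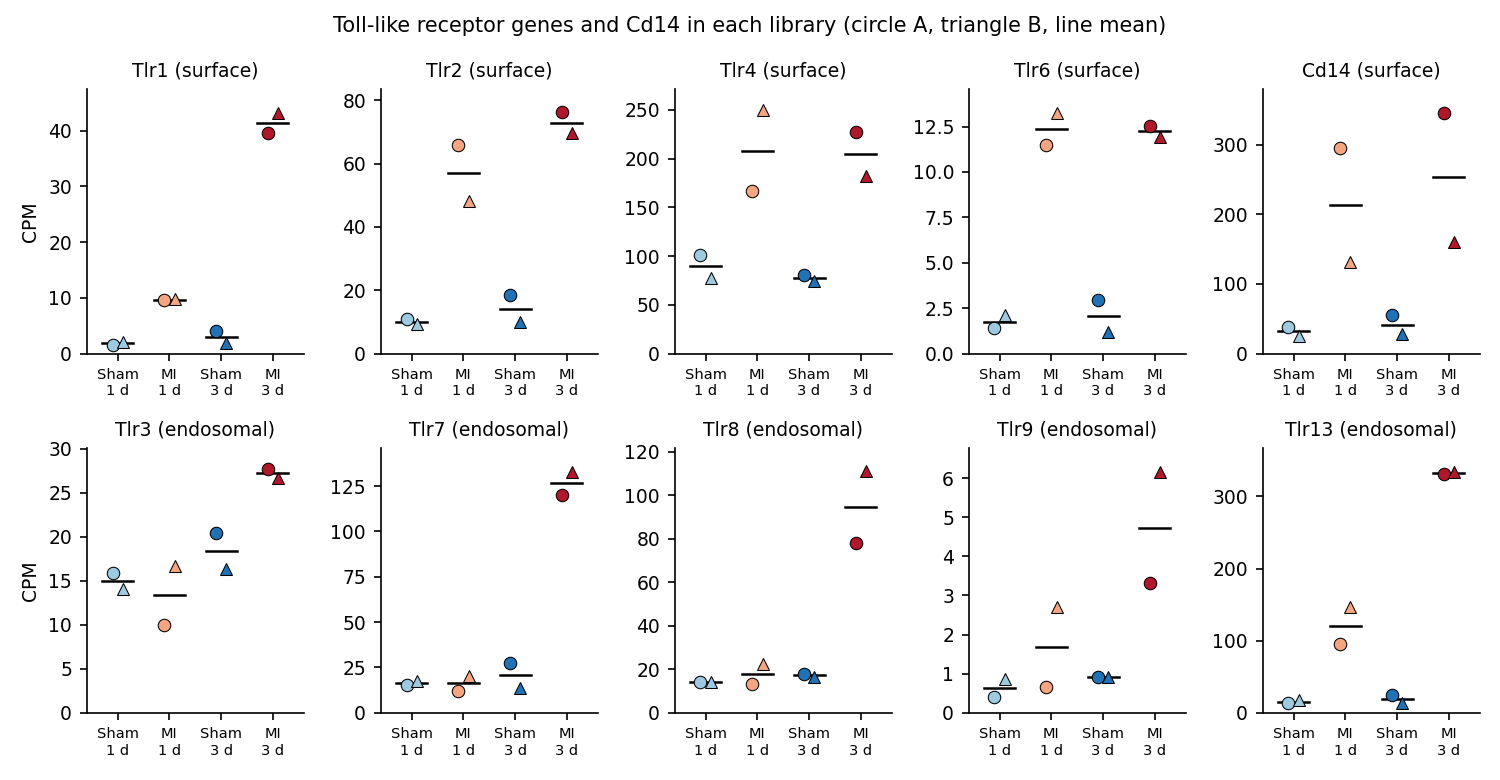
CPM (y axis, linear from 0, own scale per gene) of the 10 genes in the 8 libraries by group (x axis), with a circle for library A, a triangle for library B and a line at the mean. Tlr13 reached 332 and 333 CPM in the MI libraries of 3 days, and Tlr7 and Tlr8 were above 70 CPM there alone.

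In sham hearts, Tlr4 and Cd14 were the most abundant of these genes per transcript length and Tlr9 the least abundant. At 1 day Tlr4 stood at 21.9 ± 3.96 CPM per kb (SD, n = 2) and Cd14 at 20.3 ± 5.74 CPM per kb, and the libraries of these genes overlapped. Tlr7, Tlr8, Tlr13, Tlr3 and Tlr2 followed between 3.33 and 4.26 CPM per kb, each neighbour in this order overlapping the next. Tlr1 (0.609 ± 0.131 CPM per kb) and Tlr6 (0.478 ± 0.141 CPM per kb) overlapped each other below these, and Tlr9 stood at 0.182 ± 0.0927 CPM per kb. Sham hearts at 3 days had the same split: Cd14 and Tlr4 on top, then 5 genes between 4.26 and 5.29 CPM per kb, then Tlr1, Tlr6 and Tlr9.

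None of the 10 genes differed between sham at 3 days and sham at 1 day in edgeR's quasi-likelihood test with Benjamini-Hochberg adjustment, the test used throughout (adjusted p 0.669 to 0.912, threshold 0.05). The count at an unadjusted p under 0.05 was also 0, against 7.8% of all genes, and DESeq2 and limma-voom called 0 of the 10 as well. Over all genes tested the share called was 0%. Sham library A of 3 days lay above library B for all 10 genes, with Tlr7 at 27.5 against 13.7 CPM and Cd14 at 55.4 against 27.4 CPM. For Tlr9 the values were 0.908 and 0.902 CPM, from 17 reads in each library. The share of all genes with this order was not computed. In the same libraries the 9 leukocyte genes summed to 506 and 264 CPM and the 7 fibroblast genes to 6838 and 3359 CPM, and their part in the spread of the sham values was not tested.

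At 1 day after MI the surface group moved as a whole: Cd14, Tlr1, Tlr2, Tlr4 and Tlr6 were all higher than in sham, and of the endosomal group Tlr13 alone passed the test. Together 6 of 10 genes were called higher and 0 lower, against 19.3% of all genes tested called higher and 19.7% called lower. The surface genes had a median log2 fold change of 2.51 and the endosomal genes one of 0.31, beside 0.12 over all genes tested.

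Cd14, whose product hands lipopolysaccharide to TLR4, counted 295 and 132 CPM in MI and 38.3 and 25.5 CPM in sham. Both MI libraries lay above both sham libraries, although library A was far above library B. The log2 fold change was 2.75 (SE 0.507, adjusted p = 0.00287), and without sham library B it was 2.43 with adjusted p = 0.0532. Without MI library A it was 1.96 (adjusted p = 0.0245). Tlr4 itself, the lipopolysaccharide receptor, had 167 and 249.7 CPM in MI against 101 and 78.0 CPM in sham. Here MI library B was the higher one, the reverse of Cd14. Of the surface group it had the smallest log2 value, 1.22 (SE 0.234, adjusted p = 0.00347). Leaving out sham library B ended the call of Tlr4 (log2 0.96, adjusted p = 0.0604), as did leaving out both B libraries of 1 day (log2 0.73, adjusted p = 0.0515).

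Tlr2, the shared partner of the lipopeptide receptors, had 65.9 and 48.2 CPM in MI against 10.8 and 9.30 CPM in sham. These groups lay far apart, and the fitted log2 value was 2.51 (SE 0.301, adjusted p = 0.000400). Its partners were much less abundant and also rose. Tlr1 had 9.56 and 9.71 CPM in MI against 1.56 and 2.12 CPM in sham (log2 2.38, SE 0.39, adjusted p = 0.00162). Tlr6 had 11.5 and 13.3 CPM in MI against 1.39 and 2.12 CPM in sham (log2 2.80, SE 0.405, adjusted p = 0.000903). For both genes the MI libraries lay within a narrow range and above the sham libraries. The counts behind the sham values were small, 27 and 37 reads for Tlr1 and 24 and 37 for Tlr6. The call of Tlr1 did not hold in a fit tried on unique transcript reads, which were few for this gene.

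Tlr13 was the endosomal exception at 1 day. It had 94.7 and 147 CPM in MI against 13.3 and 17.97 CPM in sham, groups that did not overlap. The log2 value, 2.95 (SE 0.333, adjusted p = 0.000312), was the highest value of the 10 genes, whose differences from each other were not tested, and it kept its call in all 17 alternatives.

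Tlr7 and Tlr8, the single-stranded RNA receptors, did not pass the test at 1 day. Tlr7 had 11.9 and 20.5 CPM in MI against 15.5 and 17.7 CPM in sham, so that the sham values lay between the MI values. Its log2 fold change was -0.06 with a 95% interval of -0.87 to 0.74 (adjusted p = 0.901). Tlr8 had 13.2 and 22.6 CPM in MI against 14.1 and 14.2 CPM in sham (log2 0.31, interval -0.34 to 0.96, adjusted p = 0.419). In both genes MI library B was the higher of the pair. Neither interval reached the log2 value of Tlr13.

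Tlr3, the double-stranded RNA receptor, had 9.97 and 16.7 CPM in MI against 15.9 and 14.1 CPM in sham (log2 -0.20, interval -0.82 to 0.42, adjusted p = 0.585). The groups overlapped. Tlr9, the CpG DNA receptor, rested on 8 and 22 reads in MI and 7 and 15 reads in sham (log2 1.23, interval -0.78 to 3.23, adjusted p = 0.300). The interval spans both directions. Its 22 reads lie in MI library B, 2.70 CPM, where chemosensory receptor genes had a 95th percentile of 1.47 CPM. Their part in the level of Tlr9 was not tested.

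**Figure D2:**
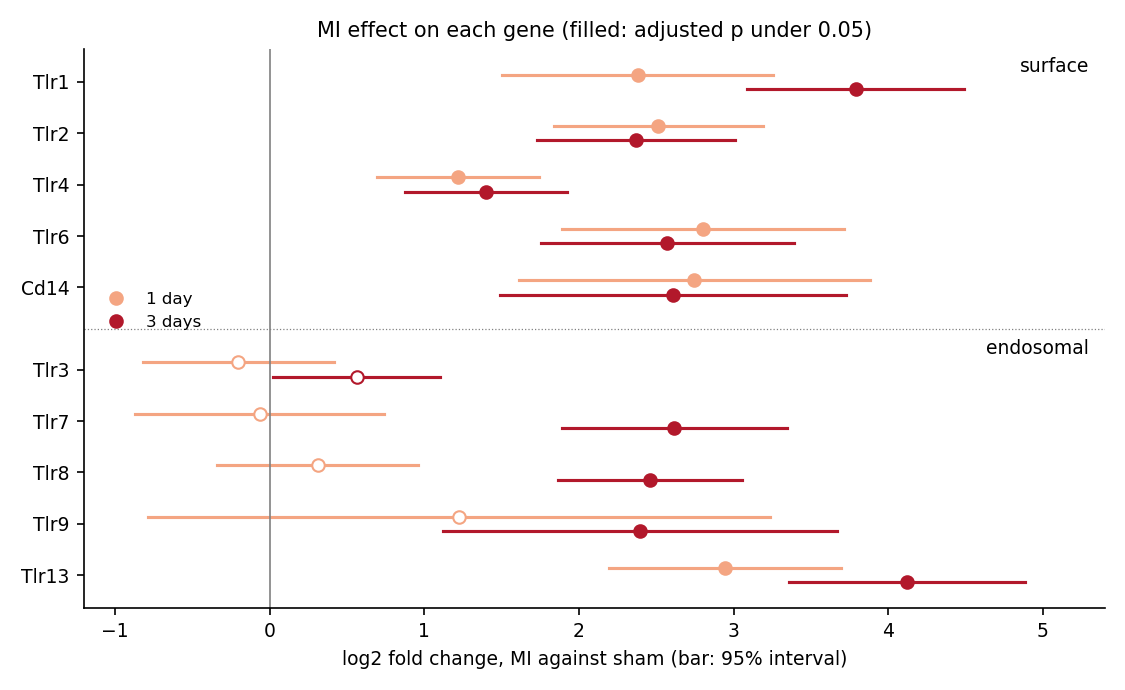
log2 fold change of MI against sham (x axis) for each gene (y axis) at 1 day (light) and 3 days (dark), with bars for the 95% interval of the fit and filled points for adjusted p under 0.05. All 5 surface genes are filled at both days, whereas the endosomal genes other than Tlr13 are open at 1 day and, except Tlr3, filled at 3 days.

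At 3 days after MI, 9 of 10 genes were higher than in sham and 0 lower, and the exception was Tlr3. Over all genes tested, 31.7% were called higher and 23.7% lower at this day. Both MI libraries lay above both sham libraries for all 10 genes, which was so for 45.9% of all genes tested. The surface genes kept a median log2 fold change of 2.57, and that of the endosomal genes was 2.46, beside 0.16 over all genes tested.

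Tlr13 showed the largest change of the 10. It had 332 and 333 CPM in the MI libraries against 25.2 and 13 CPM in sham, where library A was the higher one. The fold was 17.4 (log2 4.12, SE 0.34, adjusted p = 8.70e-06). With 81.9 ± 0.327 CPM per kb it had passed Tlr4 (50.2 ± 7.76 CPM per kb) and stood second to Cd14 (161 ± 83.3 CPM per kb), with no overlap of libraries between neighbours.

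Tlr7 had 120.1 and 133 CPM in MI against 27.5 and 13.7 CPM in sham (log2 2.62, SE 0.325, adjusted p = 0.000105), with a log2 value of 3.21 without sham library A. Tlr8 had 77.8 and 111 CPM in MI against 17.7 and 16.7 CPM in sham (log2 2.46, SE 0.265, adjusted p = 4.39e-05). For these receptors the MI values were several times the highest sham value. Per length they stood at 32.5 ± 2.32 and 27.5 ± 6.81 CPM per kb with overlapping libraries. Tlr9 remained the least abundant gene, at 3.32 and 6.16 CPM in MI (81 and 181 reads) against 0.908 and 0.902 CPM in sham. The log2 value of Tlr9, 2.40 (SE 0.566, adjusted p = 0.00536), was 1.64 with adjusted p = 0.0835 without MI library B. Tlr3 had 27.8 and 26.7 CPM in MI against 20.5 and 16.4 CPM in sham. These groups did not overlap, but the difference was small (log2 0.56, interval 0.02 to 1.10, adjusted p = 0.0732). Tlr3 passed the threshold in 4 of 17 alternatives: with library sizes unscaled (adjusted p = 0.0204), with limma-voom (0.0478), without MI library B of 1 day (0.0193) and without both B libraries of 1 day (0.0317).

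Among the surface genes, Tlr1 changed most. It had 39.6 and 43.1 CPM in MI against 4.11 and 1.86 CPM in sham, a fold of 13.8 (log2 3.79, SE 0.312, adjusted p = 8.75e-06). Without sham library A of 3 days its log2 value was 4.48. The groups were far apart although the sham libraries differed from each other. Tlr6, its neighbour on chromosome 5 that holds the shared run printed above, had 12.5 and 11.9 CPM in MI against 2.94 and 1.17 CPM in sham (log2 2.57, SE 0.364, adjusted p = 0.000244), and 3.39 on the log2 scale without sham library A. The ratio of Tlr1 to Tlr6 per length was 3.84 and 4.39 in the MI libraries of 3 days, 1.01 and 0.889 in those of 1 day, and 1.22 to 1.93 in the 4 sham libraries. Thus the MI libraries of 3 days held the highest ratio of these 8.

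Tlr2 had 76.3 and 69.6 CPM in MI against 18.4 and 9.87 CPM in sham at 3 days (log2 2.37, SE 0.286, adjusted p = 8.74e-05). Tlr4 had 227 and 182 CPM in MI against 80.8 and 74.3 CPM in sham (log2 1.40, SE 0.233, adjusted p = 0.000674). Cd14 had 346 and 160.5 CPM in MI against 55.4 and 27.4 CPM in sham (log2 2.61, SE 0.498, adjusted p = 0.00154). None of these overlapped between the groups, and Cd14 again had the widest spread within MI. The log2 value of Cd14 was 1.74 without MI library A (adjusted p = 0.0287) and 3.21 without sham library A.

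The test of the difference, the MI effect at 3 days minus that at 1 day, called Tlr7 and Tlr8. The effect on Tlr7 was larger at 3 days by 2.68 on the log2 scale (SE 0.478, adjusted p = 0.00404) and that on Tlr8 by 2.15 (SE 0.389, adjusted p = 0.00437). Of all genes tested, 13.2% were called with a larger effect at 3 days and 11.3% with a smaller one, against 2 and 0 of these 10. The count of 2 of 10 is near the 13.2% of all genes. Tlr7 and Tlr8 kept the call in all 16 alternatives for this comparison, with 3.36 for Tlr7 without sham library A of 3 days. Tlr13 (1.18, interval 0.18 to 2.18, adjusted p = 0.0839) and Tlr1 (1.41, interval 0.23 to 2.59, adjusted p = 0.0808) did not pass, although their unadjusted p was under 0.05, as was that of 37.7% of all genes. Without sham library A of 3 days both passed (Tlr13 log2 1.82, adjusted p = 0.0198; Tlr1 log2 2.16, adjusted p = 0.0256), and the count of calls was 4. Without MI library B of 1 day it was also 4, by Tlr3 (log2 1.15, adjusted p = 0.0198) and Tlr13 (log2 1.52, adjusted p = 0.0363) beside Tlr7 and Tlr8. Tlr3 also passed without both B libraries of 1 day (log2 1.23, adjusted p = 0.0428).

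For Tlr2, Tlr4, Tlr6 and Cd14 the effects at both days differed by -0.23 to 0.18 on the log2 scale (adjusted p 0.719 to 0.908). The 95% intervals of these differences ran from -1.65 to 1.38 for Cd14 and from -0.55 to 0.91 for Tlr4, so the data allow a change between the days for them. Tlr3 (0.76, adjusted p = 0.158) and Tlr9 (1.17, adjusted p = 0.478) did not pass either.

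Set directly against MI at 1 day, MI hearts at 3 days had higher levels of all 5 endosomal genes and of Tlr1. Thus 6 of 10 genes were called higher and 0 lower, against 23.4% and 22% of all genes tested. The largest of these changes was that of Tlr7 (log2 2.99, SE 0.347, adjusted p = 0.000138), followed by Tlr8 (2.43), Tlr1 (2.10), Tlr9 (1.68), Tlr13 (1.47) and Tlr3 (1.06). Tlr2, Tlr4, Tlr6 and Cd14 had values of -0.02 to 0.35. The call of Tlr9 (adjusted p = 0.0464) held in 7 of 16 alternatives. Its log2 value was 0.75 without MI library A of 1 day (adjusted p = 0.331), 1.02 without MI library B of 3 days (0.276) and 2.87 without MI library B of 1 day (0.0131). The adjusted p was also 0.0577 and 0.0583 without sham library A or B of 1 day, 0.0502 without sham library B of 3 days, 0.137 with DESeq2, 0.0533 with limma-voom, 0.0593 with relative log expression factors and 0.0654 with the transcript tables. That of Tlr3 was lost without either MI library of 3 days (adjusted p = 0.0662 without A, 0.0637 without B).

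**Figure D3:**
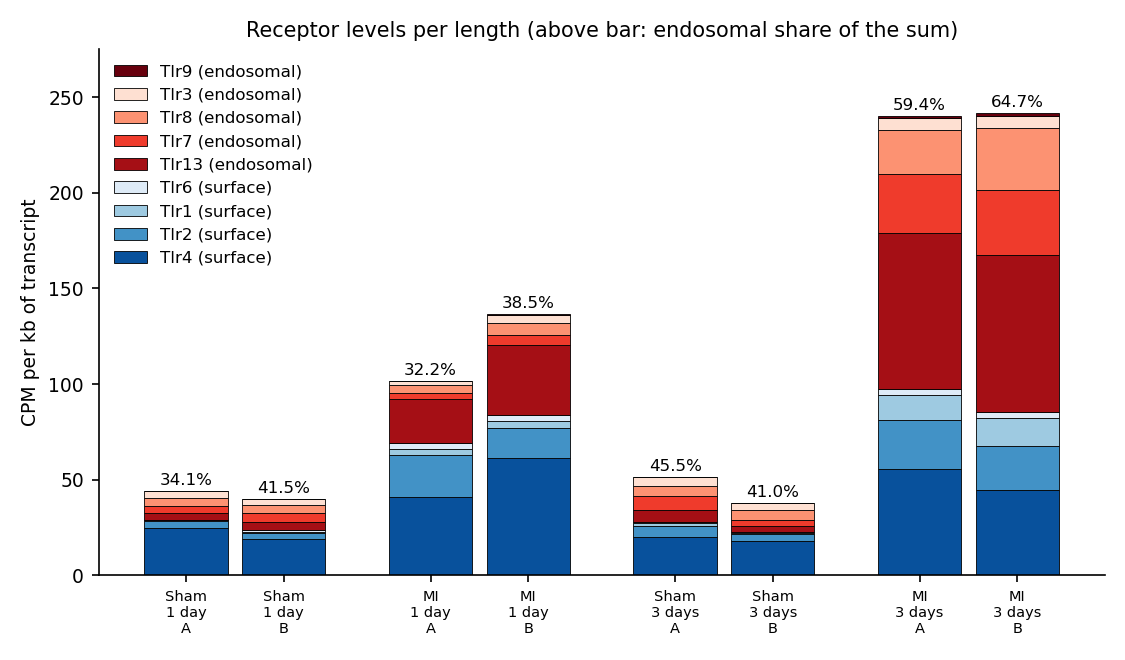
Stacked CPM per kb of transcript (y axis) of 9 receptor genes in each library (x axis), surface receptors in blue below and endosomal receptors in red above, with the endosomal share over each bar. The share is 59.4% and 64.7% in the MI libraries of 3 days and 32.2% to 45.5% in the other 6.

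Summed per length, the receptor genes shifted toward the endosomal group between the days. Cd14 is left out of these sums because it is a co-receptor. The 4 surface receptors summed to 26.3 ± 4.03 CPM per kb in sham and 76.5 ± 10.6 CPM per kb in MI at 1 day, and to 25.2 ± 3.98 and 91.4 ± 8.62 CPM per kb at 3 days. The 5 endosomal receptors summed to 15.9 ± 1.08 and 42.7 ± 14.1 CPM per kb at 1 day, and to 19.5 ± 5.497 and 149.5 ± 9.86 CPM per kb at 3 days (SD, n = 2 in each). The endosomal share was 37.8% ± 5.197 in sham and 35.3% ± 4.48 in MI at 1 day, where the libraries overlapped. At 3 days it was 43.3% ± 3.12 in sham and 62.0% ± 3.77 in MI, where they did not. No test was made on these sums, since the genes were chosen. With the median transcript length in place of the longest, the share in MI at 1 day was 28.4%.

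Single receptors moved within that total in opposite ways. Tlr4 made up 51.7% ± 5.76 of the receptor level in sham and 42.5% ± 3.28 in MI at 1 day, and 43.2% ± 6.65 in sham and 20.9% ± 3.33 in MI at 3 days. Tlr13 held 9.20% ± 2.59 in sham and 24.7% ± 2.48 in MI at 1 day, and 10.23% ± 2.56 and 34.0% ± 0.0393 at 3 days. Tlr7 held 10.15% ± 1.69 in sham and 3.43% ± 0.5997 in MI at 1 day, but 11.5% ± 3.17 and 13.5% ± 0.892 at 3 days. Tlr13 and Tlr7 were thus at about the same level per length in the sham libraries (ratio 0.823 to 0.972), whereas the ratio was 7.63 and 6.86 in the MI libraries of 1 day and 2.65 and 2.41 in those of 3 days.

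Leukocyte genes changed alongside. The 9 leukocyte genes, such as Ptprc, the gene of CD45, and also Cd53, Tyrobp, Itgb2 and Spi1, summed to 276 and 339.6 CPM in sham and 1225 and 1045 CPM in MI at 1 day, and to 506 and 264 CPM against 3002 and 2920 CPM at 3 days. None of them was at 0 in any group. By subset, the 13 neutrophil genes summed to 2576 and 1402 CPM in MI against 233 and 162 CPM in sham at 1 day, and to 1383 and 805 CPM against 239 and 124 CPM at 3 days. The 10 pan-macrophage genes, such as Csf1r and Cd68, summed to 566 and 659 CPM in MI against 972 and 1194 CPM in sham at 1 day, and to 6305 and 7109 CPM against 1645 and 850 CPM at 3 days. Of these 10, 2 were called higher and 4 lower at 1 day, against 19.3% and 19.7% of all genes, and 10 higher at 3 days, against 31.7%. The 13 genes of monocytes and recruited macrophages summed to 4385 and 3731 CPM in MI against 373 and 343 CPM in sham at 1 day, with 11 called higher. At 3 days they summed to 11550 and 9155 CPM in MI against 518.5 and 373.4 CPM in sham, and all 13 were called higher (median log2 4.38). The 10 resident macrophage genes summed to 841.7 CPM in MI against 876.1 CPM in sham at 1 day, with 0 called higher and 4 lower, and to 1479 against 965.1 CPM at 3 days, with 2 higher and 5 lower (median log2 -0.81), so that sum and median differed in direction at 3 days. The 10 dendritic cell genes summed to 65.6 CPM in MI against 60.2 CPM in sham at 1 day (3 higher, 1 lower) and to 152.6 against 59.3 CPM at 3 days (6 higher, 1 lower). B cell genes had 6.56 and 19.0 CPM in the MI libraries of 1 day against 5.21 and 4.31 CPM in sham. T and NK cell genes had 1.95 and 12.9 CPM against 2.37 and 2.58 CPM. Both higher values lie in MI library B, where 92.3% of chemosensory receptor genes had reads, at a mean of 0.61 CPM per gene. The part of such reads in these sums was not tested. At 3 days the mean sums were 18.5 against 8.76 CPM for B cell genes (3 of 7 tested called higher) and 8.62 against 3.44 CPM for T and NK cell genes (1 of 6). Pax5 and Cd3d were at 0 in both sham libraries of 1 day. The 7 endothelial genes summed to 2080 CPM in MI against 1236 CPM in sham at 1 day, with 5 called higher and 1 lower. At 3 days they summed to 1539 against 1353 CPM, with 2 higher and 1 lower. The part of these cells in the changes of the receptor genes was not tested.

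**Figure D4:**
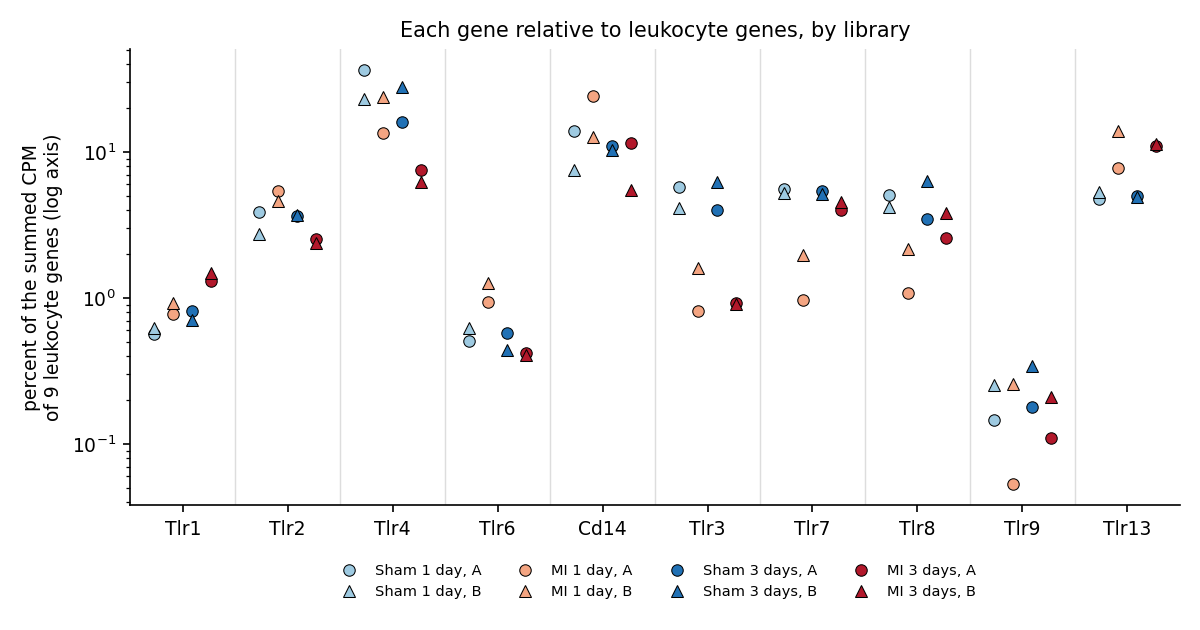
Each gene's CPM as a percentage of the summed CPM of 9 leukocyte genes (y axis, log scale) for the 10 genes (x axis), with colour for the group, circles for library A and triangles for library B. Tlr13 and Tlr1 lie above sham at both days, Tlr3 below sham at both days, and Tlr7 and Tlr8 lie lowest in the MI libraries of 1 day.

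Relative to the leukocyte genes, the order of the changes was another one. Tlr13 per leukocyte gene was higher in MI at both days, 10.9% ± 4.46 against 5.05% ± 0.343 at 1 day and 11.2% ± 0.265 against 4.94% ± 0.0362 at 3 days. Tlr1 was also higher at both days, with a ratio of means of 1.43 at 1 day and 1.85 at 3 days. Neither gene overlapped between MI and sham at either day. The share of all genes without overlap on this scale was not computed.

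Tlr7 was lower, 1.47% ± 0.701 in MI against 5.41% ± 0.269 in sham at 1 day, and 4.28% ± 0.389 against 5.31% ± 0.180 at 3 days, with no overlap at either day. Tlr8 was 1.62% ± 0.768 in MI against 4.65% ± 0.642 in sham at 1 day, without overlap, whereas its libraries overlapped at 3 days. Tlr3 lay below sham at both days, at 1.21% ± 0.556 against 4.96% ± 1.13 and at 0.920% ± 0.00748 against 5.12% ± 1.53. Tlr2 and Tlr6 lay above sham at 1 day (ratios of 1.503 and 1.96) and below it at 3 days (0.669 and 0.809). Tlr4 overlapped at 1 day and was lower at 3 days (ratio 0.314), and Cd14 and Tlr9 overlapped at both days. With Ptprc alone as the measure, Tlr4 was lower at 1 day as well (ratio 0.679) and Tlr6 overlapped at 3 days. These are ratios without a test, and they do not say which cells held the transcripts. A lack of overlap among so few libraries, with no share of all genes beside it, does not set a member apart from other genes.

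Genes whose levels followed each member most closely were found over the 8 libraries among 13005 tested genes, by the root mean square difference of log2 CPM after centring each gene. Within the group, Tlr7 and Tlr8 were the most alike (0.327), followed by Tlr2 and Cd14 (0.333), Tlr2 and Tlr6 (0.348) and Tlr1 and Tlr13 (0.374). Nearest to Tlr13 were Emb (0.151), Cd53 (0.180), which encodes a leukocyte tetraspanin, and Eme1 (0.196). Cd53 had mean levels of 24.8 CPM in sham and 210.5 CPM in MI at 1 day, and of 36.6 and 592 CPM at 3 days. Nearest to Tlr1 were Cd52 (0.135), Tyrobp (0.199), a signalling adaptor of myeloid receptors, and Fn1 (0.214), fibronectin.

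Nearest to Tlr7 were Maged2 (0.145), Arl6ip1 (0.162) and Cnpy4 (0.169), and Maged2 had 29.9 and 28.1 CPM in sham and MI at 1 day but 31.9 and 211 CPM at 3 days. Nearest to Tlr8 were Rfc3 (0.178), Specc1 (0.184) and Dera (0.189). Nearest to Tlr2 were Psd4 (0.190), Kcne4 (0.195) and Tgif1 (0.196), to Tlr4 Ddx18 (0.153), Fkbp1a (0.160) and Fbxl5 (0.173), and to Tlr6 Lcp2 (0.174), Chsy3 (0.192) and Pdpn (0.215). Tgif1 (0.191) was also nearest to Cd14, before Hp (0.304), haptoglobin, and Btg1 (0.317). Nearest to Tlr3 were Dcps (0.101), Krcc1 (0.112) and Pot1a (0.126), and to Tlr9 Zfp850 (0.257), Map4k1 (0.258) and H2-Ob (0.306). The 8 libraries share 4 groups, so genes with the same group means rank high. Without both B libraries of 1 day, 13 of these 30 places went to the same gene of the same member's nearest 3. All genes named for Tlr1 stayed, whereas none of those named for Tlr2, Tlr4 and Tlr8 did.

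The proteins that serve these receptors were read from 9 lists, chosen like the members with earlier results of these data known. Beside their counts stand 19.3% of all genes tested called higher and 19.7% lower at 1 day (median log2 0.12), 31.7% and 23.7% at 3 days (median 0.16), and 13.2% and 11.3% for the difference between the days. Of 8 surface co-receptors and ligand carriers, 2 were higher at 1 day and 6 at 3 days, when Cd36 was lower, with median log2 fold changes of 0.34 and 2.15. At 1 day, 2 of 8 is near the 19.3% of all genes. Itgam and Itgb2, the chains of the integrin CR3, were higher at both days (log2 3.39 and 1.92 at 1 day, 2.65 and 2.56 at 3 days). Ly96, without which TLR4 does not bind lipopolysaccharide, had 1.95 and 2.95 CPM in MI against 0.463 and 1.61 CPM in sham at 1 day (adjusted p = 0.149) and 6.31 and 7.21 CPM against 1.87 and 2.18 CPM at 3 days (log2 1.74, SE 0.39, adjusted p = 0.00398, and 0.0508 without MI library B). Cd180 and Ly86, a receptor pair related to TLR4 and its partner, were at log2 4.08 and 3.10 at 3 days but 0.34 and -0.69 at 1 day, and the difference was called for both (adjusted p = 0.0218 and 0.00307). Without sham library A of 3 days they were at 5.21 and 3.87, and Cd180 was at 3.46 without sham library B. Lbp, the carrier of lipopolysaccharide in plasma, did not pass at either day (log2 0.31 and -0.49).

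Chaperones and proteins of endosomal traffic followed the later time course. Of 11 genes, 2 were higher and 2 lower at 1 day and 10 were higher at 3 days, with medians of 0.20 and 1.84, and the difference between the days was called for 9, all with a larger effect at 3 days. The counts at 1 day are near the shares of all genes (19.3% and 19.7%), and 9 of 11 stands beside 13.2% for the difference. Unc93b1, which carries the endosomal receptors from the endoplasmic reticulum, had 28.5 and 18.6 CPM in MI against 38.8 and 44.1 CPM in sham at 1 day. Both MI values lay below sham (log2 -0.80, SE 0.313, adjusted p = 0.0696), and the decrease passed the threshold with DESeq2 (0.0279), with the transcript tables (0.0426) and without MI library A (0.0239). At 3 days it had 92.5 and 136 CPM against 52.6 and 31.9 CPM (log2 1.44, SE 0.292, adjusted p = 0.00226, and 0.0739 without MI library B), and the difference was 2.23 (SE 0.428, adjusted p = 0.00571). The proteases Ctss and Ctsk, which cleave endosomal receptors, changed by log2 3.999 and 2.94 at 3 days, with 4.61 for Ctss without sham library A. Slc15a3, an endosomal transporter, was higher at both days (log2 2.99 and 3.41, and 2.34 at 1 day without MI library A). Ctsb (log2 -0.74) and Slc15a4 (log2 -0.84) were lower at 1 day, calls that Slc15a4 lost without either sham library of 1 day (adjusted p = 0.0572 and 0.0693) and Ctsb without these (0.0894 and 0.108) or MI library B (0.0531). Both also lost it without both B libraries of 1 day (Slc15a4 0.0711, Ctsb 0.159) and with library sizes unscaled (0.0609 and 0.119).

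**Figure D5:**
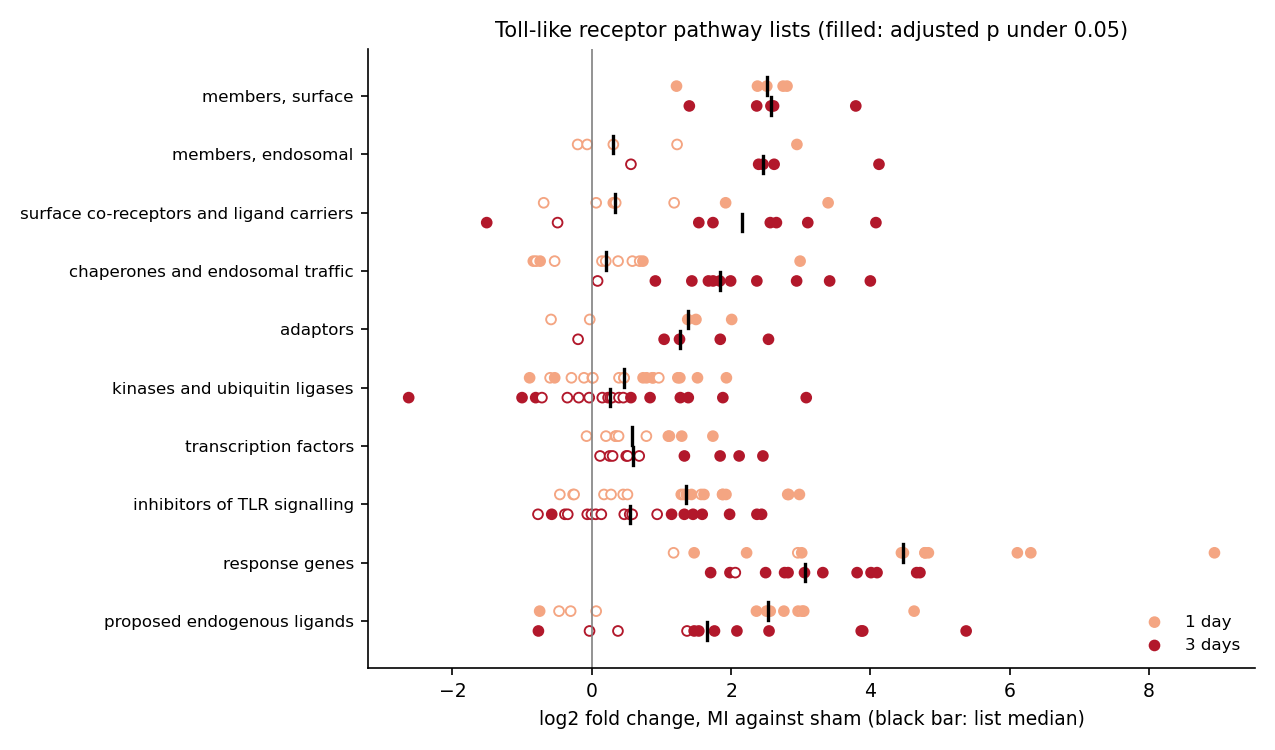
log2 fold change of MI against sham (x axis) of each tested gene in 10 lists (y axis) at 1 day (light) and 3 days (dark), filled for adjusted p under 0.05, with a black bar at the list median. The medians of the endosomal receptors (0.31 and 2.46) and of the endosomal traffic genes (0.20 and 1.84) lie far apart between the days. Those of the surface co-receptors and ligand carriers (0.34 and 2.15) do so as well.

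Of 6 adaptors, 5 were tested, 3 were higher at 1 day and 4 at 3 days, and none had a called difference between the days. Myd88, the adaptor of most of these receptors, had 69.0 and 35.3 CPM in MI against 20.4 and 20.2 CPM in sham at 1 day (log2 1.38, SE 0.289, adjusted p = 0.00527), and 39.3 and 39.7 CPM against 21.2 and 17.3 CPM at 3 days (log2 1.04, SE 0.282, adjusted p = 0.0108). Its call was lost at 1 day without sham library A or B (adjusted p = 0.0713 and 0.0712) and at 3 days without MI library A or B (0.131 and 0.149) or sham library B (0.110). At 1 day its log2 value was 0.71 without MI library A (adjusted p = 0.0146). Tirap, which bridges TLR2 and TLR4 to MyD88, was at log2 1.496 and 1.26 (adjusted p = 0.0509 at 3 days without MI library B), and Pik3ap1 at 2.01 and 2.54 (0.0711 and 0.0640 at 1 day without sham library A or B). The log2 value of Pik3ap1 was 1.16 at 1 day without MI library A (adjusted p = 0.0409) and 3.22 at 3 days without sham library A. Ticam1, the adaptor of TLR3, stayed between 9.05 and 14.8 CPM in all 8 libraries (log2 -0.03 and -0.20, adjusted p = 0.940 and 0.507). Ticam2, the bridge from TLR4 to it, passed at 3 days (log2 1.84, adjusted p = 0.0133) and not at 1 day. It did not pass at 3 days with DESeq2 (0.0559), with the transcript tables (0.0861), without MI library B (0.112) or without sham library B (0.0962), and its log2 value was 2.64 without sham library A.

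Of 19 kinases and ubiquitin ligases, 8 were higher and 2 lower at 1 day and 6 higher and 3 lower at 3 days, with medians of 0.46 and 0.27. At 3 days 6 of 19 is near the 31.7% of all genes called higher, and the median lies near that of all genes. Traf6, the ligase next to MyD88, was at log2 1.27 at 1 day (adjusted p = 0.00169) and 0.45 at 3 days (adjusted p = 0.0888). Ikbke and Map3k8 were called at both days (1.93 and 1.52, then 3.08 and 1.27), Ikbke at 1 day not without sham library A (adjusted p = 0.0857), and at log2 2.55 without both B libraries of that day. Ripk1 was at 1.24 and 1.88. Peli3 was lower at 3 days (log2 -2.63, adjusted p = 0.0368) at levels of at most 1.39 CPM at that day, and lost the call without any of the 4 libraries of 3 days or either sham library of 1 day (adjusted p 0.0573 to 0.240), with library sizes unscaled (0.0583) or without the filter (0.0501). Its log2 value was -4.67 without MI library B of 3 days.

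Of 10 transcription factors, 4 were higher and 0 lower at each day, at 3 days near the 31.7% of all genes. Irf5, which acts below MyD88, was at log2 1.74 and 2.12, and Spi1, the gene of PU.1, at 1.10 and 2.46. Rel was called at 1 day (1.29), Irf8 at 3 days (1.84). Relb (1.11, adjusted p = 0.0429) held its call in 7 of 17 alternatives. It lost the call without any single library except MI library B of 1 day (adjusted p 0.0881 to 0.653), with a log2 value of 0.18 without MI library A of 1 day.

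Of 19 genes listed as inhibitors of the pathway, 10 were higher at 1 day and 7 at 3 days, when Tollip was lower. The medians were 1.36 and 0.55. A place in this list does not mean that a gene, such as Nfkbiz, acts as an inhibitor alone. At 3 days 7 of 19 is near the 31.7% of all genes called higher. Irak3, which blocks IRAK kinases, had 62.3 and 35.8 CPM in MI against 14.9 and 12.0 CPM in sham at 1 day (log2 1.88, SE 0.303, adjusted p = 0.00151), and 22.5 and 15.6 CPM against 14.3 and 13.2 CPM at 3 days (log2 0.47, adjusted p = 0.211, and 0.0385 with library sizes unscaled). Its effect was smaller at 3 days, a difference of -1.41 (SE 0.423, adjusted p = 0.0377). Nfkbiz, Socs3 and Tnfaip3 were at log2 2.98, 2.83 and 2.81 at 1 day, and Nfkbie, Socs3 and Trim30a at 2.44, 2.37 and 1.98 at 3 days. Without MI library A the values at 1 day were 2.13 for Nfkbiz, 1.47 for Socs3 and 2.198 for Tnfaip3. Socs3 was at 3.48 without MI library B, and Nfkbiz at 3.71 without both B libraries. Without sham library A, Socs3 was not called at 3 days (adjusted p = 0.0531).

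Of 14 response genes, 13 were tested, 11 were higher at 1 day and 12 at 3 days, with medians of 4.47 and 3.05. Il6 had 188 and 100.5 CPM in MI against 0.174 and 0.402 CPM in sham at 1 day, and 141 and 56.3 CPM against 4.97 and 2.55 CPM at 3 days (log2 8.94 and 4.71). Its sham values at 1 day rest on few reads, and the effect was smaller at 3 days by the test of the difference (-4.23, SE 1.13, adjusted p = 0.0225). At 1 day the log2 value of Il6 was 8.32 without MI library A, 10.03 without both B libraries and 9.59 without sham library B, and at 3 days it was 3.69 without MI library A. Cxcl10 was at 6.11 and 4.10, Ptgs2 at 6.30 at 1 day (adjusted p = 0.0797 without both B libraries of that day), and Irg1, also called Acod1, at 4.66 at 3 days (0.0552 without sham library B, 0.0661 with limma-voom). At 1 day Cxcl10 was at 6.98 and 5.48 without sham library A or B, and Ptgs2 at 5.67 without MI library A and 6.97 without sham library A. At 3 days Irg1 was at 2.34 and 5.28 without MI library A or B and at 5.32 without sham library A.

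Of 12 genes of proposed endogenous ligands, 7 were higher at 1 day and 8 at 3 days, and Hspd1 was lower at both. Tnc, tenascin C, had 287 and 303 CPM in MI against 10.24 and 13.6 CPM in sham at 1 day, and 896 and 1054 CPM against 12.2 and 34.8 CPM at 3 days (log2 4.63 and 5.37). Tnc was at 6.33 at 3 days without sham library B. S100a9 was at 3.04 at 1 day (2.37 without MI library A) and Fn1 at 3.89 at 3 days. Hspa1b (2.96 at 1 day) lost its call without sham library B (adjusted p = 0.0623) and was at 1.65 and 3.61 without MI library A or B. Saa3 at 3 days (3.87) rested on MI library A, with 433 CPM against 36.7 CPM in library B, and without A its log2 value was 0.98 (adjusted p = 0.264), and without B it was 4.53. It also lost the call without sham library A or B of 3 days (0.0561 and 0.0844) or MI library A or B of 1 day (0.0835 and 0.0618), and with the transcript tables (0.0517).

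Of the remaining Toll-like receptor genes, Tlr5 had 2.76 and 8.60 CPM in MI against 4.69 and 3.56 CPM in sham at 1 day (adjusted p = 0.575) and 7.17 and 7.01 CPM against 3.85 and 3.45 CPM at 3 days (log2 0.96, adjusted p = 0.0702). It passed at 3 days without MI library A or B of 1 day (adjusted p = 0.0338 and 0.0102), with each day fitted alone (0.0412), with library sizes unscaled (0.0303) and without both B libraries of 1 day (0.0163), and at 1 day without MI library A (0.0417). Tlr11 and Tlr12 did not pass the filter and stood at 2.83 and 3.32 CPM in MI library B of 1 day but at most 0.405 CPM in the other libraries.

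In the authors' deposited tables of their own test, where positive values stand for MI in the 1 day table and for sham in the 3 day table, the adjusted p was under 0.05 for 6 of the 10 genes at 1 day and 9 at 3 days, by the same symbols as above. Turned to MI over sham, the authors' deposited table gave log2 values of 2.77 at 1 day and 3.89 at 3 days for Tlr13, and of -0.10 and 2.40 for Tlr7.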

How the data were processed

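Left ventricular RNA of 8 mice was sequenced, 2 per group. The deposited count tables hold whole reads per gene symbol. Per the submitters' processing notes, reads were processed on mm10 with TopHat2 2.0.14, Bowtie2 2.2.5 and HTSeq, beside SAMtools 0.1.2, FastQC and DESeq2. Annotation and strand setting: not given in the sources used here. The deposited transcript tables give read counts and transcript lengths for 96535 transcripts, and 48 further columns of values per library there were not used. The authors' deposited comparison tables give log2 fold changes and adjusted p-values.

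In the 1 day count table both sham columns carry the same name, and their values differ. Of 24062 genes, 15508 passed edgeR's filterByExpr and 8554 were not tested. A robust quasi-likelihood fit (edgeR 4.0.16, R 4.3.3, TMM) took all 8 libraries, with 4 residual degrees of freedom, a common dispersion of 0.0602 and Benjamini-Hochberg adjustment over all tested genes. All 5 comparisons came from that fit, and 95% intervals are those of the fit. CPM per kb uses the longest deposited transcript of a gene. The fit was also run on simulated counts in which all genes shared the common dispersion, so that run cannot speak to the spread of single genes here. Alternatives were DESeq2 1.42.0, limma 3.58.1 (voom), other scalings, no filter, a fit that was not robust, each day alone, the transcript tables, the median length, and leaving out libraries. Figures were drawn with Python 3.11.15.

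All 10 members are described. Of each pathway list, up to 3 genes per day with a mean of at least 1 CPM were named by size of change among those called, beside a few fixed genes. Genes outside that rule that are named for a call in 1 direction were chosen after their values were seen. The members, the gene lists and the cell type markers were chosen with earlier results of these data known.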

Additional observations from a re-analysis of the deposited data

Results flagged for a closer look

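The MI effect on Tlr7 was larger at 3 days than at 1 day by 2.68 on the log2 scale (SE 0.478, adjusted p = 0.00404 in edgeR's quasi-likelihood test of the difference). Both MI libraries of 3 days lay above the sham libraries of that day, whereas the groups overlapped at 1 day. The same test gave a difference of 2.15 for Tlr8 (SE 0.389, adjusted p = 0.00437). These 2 calls among the 10 members are near the 13.2% of all genes called with a larger effect at 3 days. Over 16 alternatives the difference ran from 2.19 to 3.36 for Tlr7 (adjusted p 1.13e-05 to 0.0298) and from 1.66 to 2.56 for Tlr8 (adjusted p 4.12e-05 to 0.0354). Of the 10 pan-macrophage genes, 2 were called higher and 4 lower at 1 day (19.3% and 19.7% of all genes). All 10 were called higher at 3 days (31.7%). Their median log2 fold change at 1 day was -0.67, beside -0.065 for Tlr7 and 0.31 for Tlr8. Of the 13 genes of monocytes and recruited macrophages, 11 were called higher at 1 day and 13 at 3 days. The part of these cell types in the difference was not tested.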

How the results depend on the processing

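No paired analysis was possible because the count columns carry no replicate number. The members called numbered 4 to 6 at 1 day over the alternatives (5 without both B libraries of 1 day), 8 to 10 at 3 days, 4 to 6 between the MI groups and 0 between the sham groups. For the difference between the days the count was 2 to 4 when single libraries were left out, with 4 without MI library B of 1 day and 4 without sham library A of 3 days. The endosomal share in MI at 1 day was 28.4% with the median transcript length. Library sizes without TMM moved the median log2 fold change of all genes by 0.28 at 1 day, 0.26 at 3 days, -0.01 for the difference, 0.18 between the MI groups and 0.19 between the sham groups. The values below changed direction. None passed the threshold at its reported value or where its direction changed, and the cause was not tested.

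At 1 day, unscaled library sizes gave 0.088 for Tlr3, 0.23 for Tlr7 and 0.25 for Ticam1, and the transcript tables gave 0.12 for Tlr7 and 0.088 for Ticam1. Without both B libraries of 1 day, Tlr8 was at -0.090 and Tlr5 at -0.76. Leaving out 1 library at a time gave -0.59 to 0.063 for Tlr3, -0.48 to 0.21 for Tlr7, -0.099 to 0.58 for Tlr8, -0.25 to 0.62 for Lbp, -0.21 to 0.038 for Ticam1, -1.86 to 0.21 for Ticam2 and -0.58 to 0.97 for Tlr5, which passed at its highest value, without MI library A. At 3 days it gave -0.031 to 0.53 for Irak3 and -0.58 to 0.0095 for Ticam1, which had 0.072 with unscaled library sizes. For the difference between the days it gave -0.46 to 0.43 for Tlr2, -0.21 to 0.50 for Tlr4, -0.67 to 0.65 for Tlr6 and -0.98 to 0.51 for Cd14. Between the MI groups it gave -0.37 to 0.30 for Tlr4, -0.20 to 0.088 for Tlr6 and -0.56 to 0.86 for Cd14. There, Tlr4 was at 0.13 with unscaled library sizes, 0.0034 with limma-voom, 0.14 without the filter and 0.29 without both B libraries of 1 day. Tlr6 was at 0.17, 0.13 and 0.085 with unscaled sizes, without the filter and without those B libraries, and Cd14 was at -0.22 without them. A planned fit on unique transcript reads is not given, since 1 measure per library was kept from the transcript tables. When it was tried, such reads were few for Tlr1 and its call at 1 day did not hold. That fit is not part of the ranges and counts over alternatives given above.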
